A study of Homo sapiens with 30 samples.

Results

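The 45 genes described here build and deliver the autophagosome. They are the ULK kinase complex, the class III PI3-kinase complex, the lipid supply proteins, the conjugation enzymes, 5 ATG8 proteins, 2 cargo receptors, DRAM1 and DRAM2, the transcription factor TFEB, 6 subunits of the HOPS and CORVET tethering complexes, and the lysosomal membrane proteins LAMP1 and LAMP2. They were chosen by name from the roles of their products, with earlier results of these data known. All 45 were found among the 39359 genes of the count table. All 45 also passed the filter on low counts. RNA-seq was carried out on H1299 cells, a human lung carcinoma line that lacks p53, 6 h and 24 h after transient transfection. The control vector, pGFP, expressed GFP only. The other vectors also expressed p53: wild type (p53 WT), the R248W mutant (p53 RW), or p53 from a template that carried O6-methylguanine in the same codon on the transcribed strand (p53 O6-meG). p53 TM cells received that same lesion vector, and their repair protein AGT was inactivated with 10 µM O6-benzylguanine (O6-bzG), so that RNA polymerase met the unrepaired lesion and could misinsert opposite it. This is transcriptional mutagenesis (TM). p53 TM cultures alone received O6-bzG, so the effect of the lesion and any effect of the drug cannot be told apart. GFP-positive cells were sorted before RNA was isolated, and each of the 10 groups held 3 biological replicates, 30 libraries in all. The vectors carried TRE-tight promoters and no known mammalian origin of replication.

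Autophagy encloses cytoplasm in a double membrane and delivers it to the lysosome. The ULK complex receives nutrient signals, the PI3-kinase complex marks the membrane where the phagophore forms, and ATG2, ATG9A and WIPI proteins feed lipid into it. The conjugation enzymes then couple ATG8 proteins (the LC3 and GABARAP families) to the membrane, cargo receptors bind ATG8, and the HOPS tether brings the closed autophagosome to the lysosome, whose membrane is lined by LAMP proteins. p53 is a transcription factor with direct targets in this pathway. DRAM1, a lysosomal membrane protein that promotes autophagy, is the best known of them.

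The libraries held between 32302699 and 71950532 counts on genes (median 44424643). A pair of libraries from 6 h, p53 O6-meG replicate 2 and p53 TM replicate 2, carry labels that contradict themselves: their titles name both groups. The levels of p53 targets in this pair lay against the group in their genotype field. DRAM1 stood at 13.003 CPM (counts scaled to a common library size) in the library labelled p53 O6-meG, where the other two held 37.0 and 35.8, and at 42.2 in the library labelled p53 TM, where the other two held 12.1 and 13.3. CDKN1A, the cell cycle inhibitor p21, was at 50.2 and 249.7 CPM in the same pair. The columns of counts for this pair also carry the name of the group opposite to the genotype field. Column names and levels thus both go with the exchanged pair and against the grouping as labelled. Because of their titles, both libraries were left out of the fit, which used 28. Many, but not all, results on p53 O6-meG or p53 TM at 6 h are also given for all 30 libraries, as labelled or with the pair exchanged. KRT8 and KRT18, keratins of epithelial cells, and VIM, a mesenchymal filament, were high in all libraries, while the epithelial markers KRT19, EPCAM and CDH1 stayed under 0.4 CPM. Summed markers of immune, endothelial, fibroblast and alveolar cells reached at most 1.65 CPM in any library. In bulk RNA, fewer cells responding and a smaller response per cell cannot be told apart.

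Basal levels differed widely between the genes. Levels are compared between genes as CPM per kb of annotated exons, and given as mean ± SD over 3 libraries. In pGFP cells at 24 h, SQSTM1, the receptor p62, was highest at 66.4 ± 13.8, and RB1CC1, the scaffold of the ULK complex also called FIP200, followed at 54.6 ± 3.1. The leading pair did not differ beyond their spread at 24 h but did at 6 h, when SQSTM1 was at 96.5 ± 9.69 and RB1CC1 at 52.7 ± 2.73. GABARAPL2 (29.3 ± 2.05), MAP1LC3B (23.8 ± 1.68) and LAMP1 (23.4 ± 0.272) came next at 24 h, and MAP1LC3B and LAMP1 did not differ beyond their spread. DRAM1 was near the bottom, at 2.9 ± 0.38 and rank 40 of 45. ATG16L2 (1.26 ± 0.0955) and TFEB (0.656 ± 0.0887) closed the order. TFEB rested on only 23 to 338 counts per library and GABARAP on 60 to 269, fewer than any other member. Another gene of the same strand shares 35.4% of the exon bases of GABARAP, 38.8% of ATG9A and 21.6% of VPS33A. How reads in shared bases were counted is not given, and any effect on these levels was not tested.

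**Figure D1:**
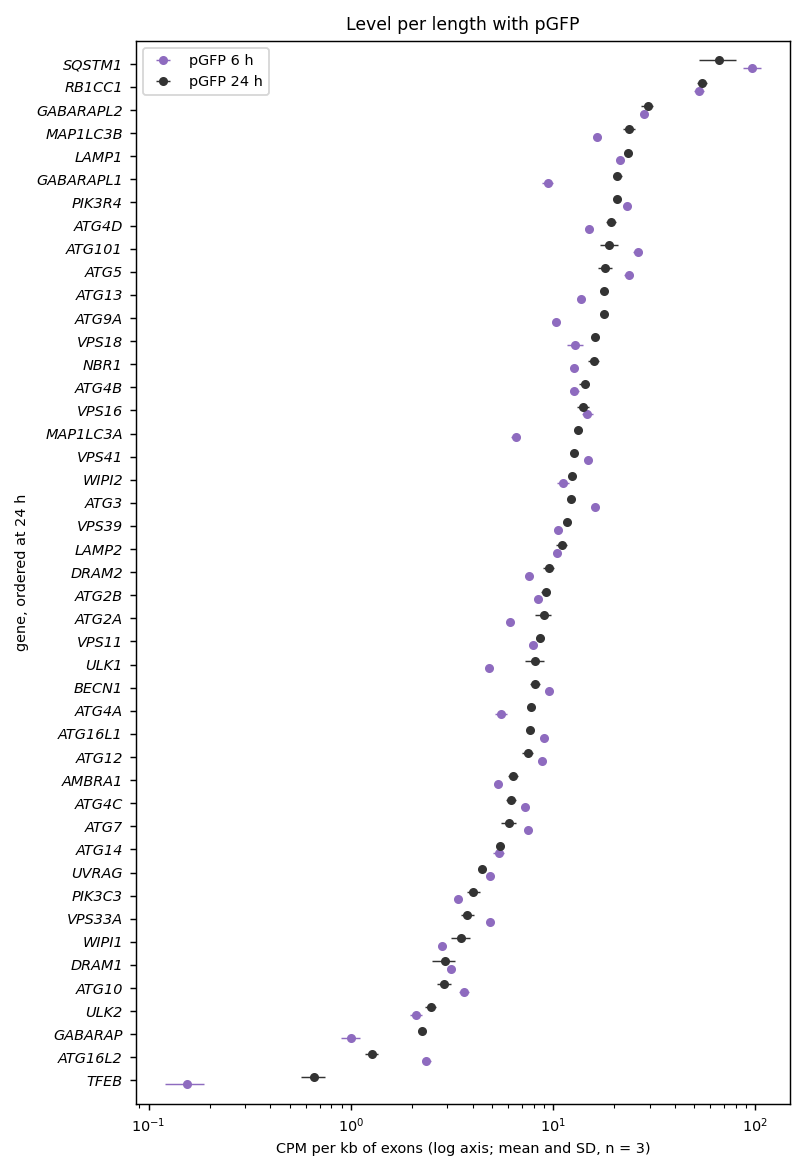
Level per length of the 45 genes in pGFP cells, as CPM per kb of exons on a log axis, at 6 h (purple) and 24 h (black). Points are means and bars are SD over 3 libraries. SQSTM1 and RB1CC1 lead, DRAM1 lies near the bottom, and TFEB is lowest, with a rise between the times.

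Levels of these genes differed between 6 h and 24 h without p53. In pGFP cells, 19 of the 45 were higher and 13 lower at 24 h than at 6 h (edgeR quasi-likelihood test, Benjamini-Hochberg adjusted p below 0.05, the threshold for every call below), where 41.2% of the 21335 genes tested were called. With the size factors of DESeq2 the split was 23 and 9. TFEB, the master regulator of lysosomal genes, rose most: it was at 1.26, 0.809 and 1.05 CPM at 6 h and 4.22, 5.07 and 3.93 at 24 h, a log2 difference of 2.08 ± 0.24 (adjusted p = 2.62e-07). No library of one time overlapped the other. The ATG8 genes rose as well. GABARAPL1 gained 1.15 ± 0.07 (adjusted p = 5.24e-11) on the log2 scale, MAP1LC3A 1.02 ± 0.10 (adjusted p = 2.96e-08) and MAP1LC3B 0.53 ± 0.11 (adjusted p = 0.000417). GABARAP gained 1.16 ± 0.17 (adjusted p = 8.94e-06), although 35.4% of its exon bases are shared with a readthrough gene of the same strand. GABARAPL2 was the exception, at 0.06 ± 0.07 (adjusted p = 0.535). ATG16L2, a paralogue of the scaffold that directs LC3 coupling, fell by 0.90 on the log2 scale (adjusted p = 8.76e-06). Lower at 24 h too were several conjugation genes, such as ATG5 (-0.39 ± 0.09) and ATG3 (-0.38 ± 0.08), and the receptor SQSTM1 (-0.54 ± 0.22 (adjusted p = 0.0487)), whose call was lost in 18 of the 28 fits without 1 library. DRAM1 was not called, at -0.10 ± 0.13 (adjusted p = 0.561). This comparison was added after the data had been seen, and time after transfection, growth and sort day cannot be told apart in it.

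Wild type p53 moved a small part of the pathway at 6 h and more of it at 24 h. At 6 h, 4 members were higher than with pGFP (DRAM1, ULK1, ATG16L2 and ATG4D) and none was lower, 8.89% of the 45 against 10.3% of all genes tested. At 24 h, 9 were higher and 9 lower, 40% of the 45 against 35% of all genes (20.5% higher and 14.5% lower). The share called was thus close to the background in both cases, and the median log2 change at 24 h was -0.03 for the members and 0.01 for all genes. At 24 h the split leaned on the scaling: with the size factors of DESeq2 the same test called 7 higher and 11 lower. Paired by replicate number, the fit called 13 higher and 13 lower at 24 h (background 48.4%). Unless the paired fit is named, calls, losses of calls and genes not called are from the fit without this pairing. Comparisons with pGFP at one time share its 3 libraries. Only DRAM1 changed by 2-fold or more among the 45 genes, at either time, whereas 4.49% of all genes did so at 6 h and 11.2% at 24 h.

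**Figure D2:**
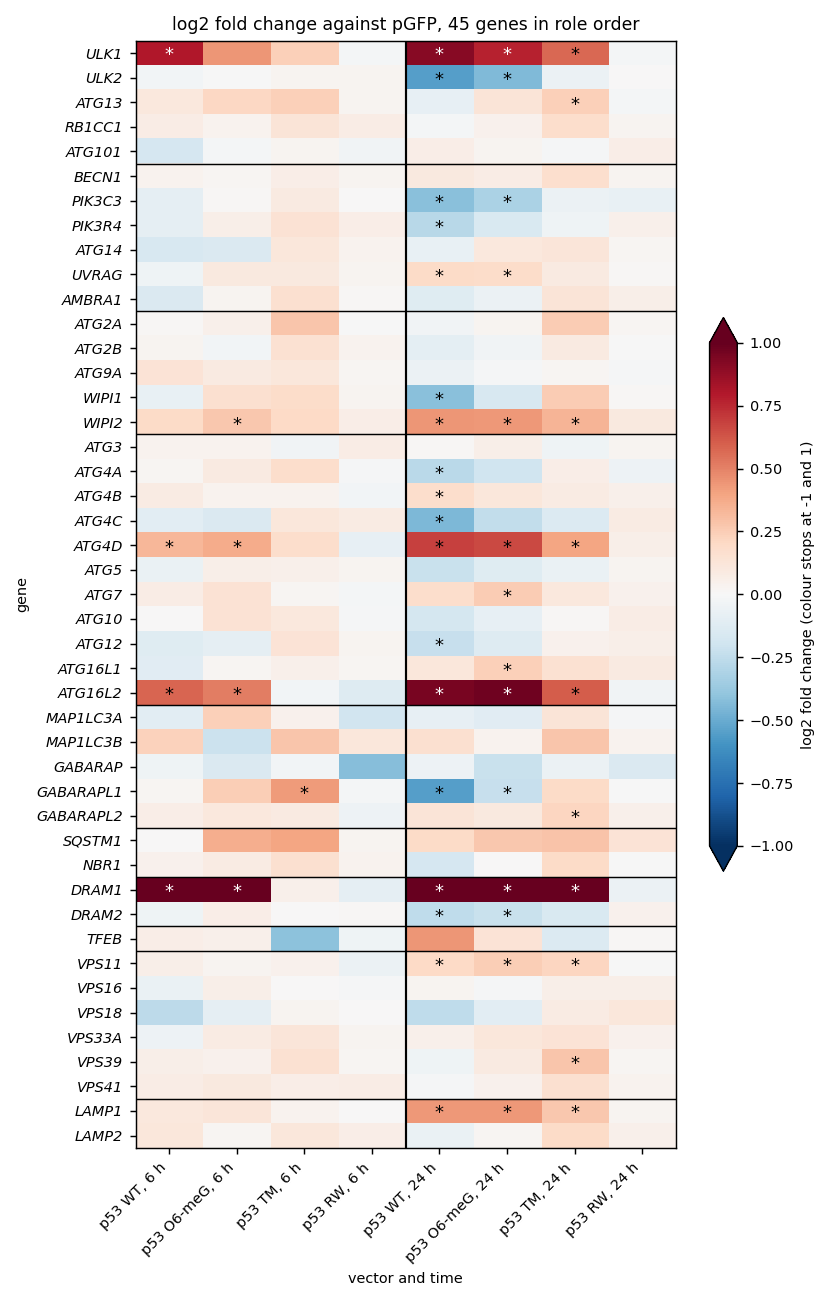
log2 fold change against pGFP at 6 h (left 4 columns) and 24 h (right 4 columns) for the 45 genes, ordered by role with lines between roles. Stars mark adjusted p below 0.05, and colours stop at -1 and 1. p53 WT and p53 O6-meG at 24 h show 18 and 14 stars, p53 TM 10, all higher, and p53 RW none.

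R248W p53 did not move any of the 45 genes detectably. None was called against pGFP at 6 h or at 24 h by edgeR or by the Wald test of DESeq2. At an unadjusted p under 0.05 there was 1 at 6 h (GABARAP, -0.43 ± 0.18 (adjusted p = 1)) and 0 at 24 h, when the 45 log2 changes lay between -0.15 and 0.14. The background was as low, with 0.00469% of all genes called at either time. With the lesion vector and active AGT 4 members were higher than with pGFP at 6 h (background 4.85%, of which 4.32% higher). At 24 h 10 were higher and 4 lower (background 29.5%), and with DESeq2 size factors 8 and 7. The fit with the replicate number as a block called 12 higher and 7 lower at 24 h (background 42.8%). The 6 h count fell to 1 without pGFP replicate 3 or p53 O6-meG replicate 3, and to 2 without pGFP replicate 2, p53 WT replicate 1 or p53 RW replicate 1 or 3, and it was 0 with all 30 libraries as labelled. Against p53 WT directly, p53 O6-meG differed in none of the 45 at 6 h (background 0%, 5 at an unadjusted p under 0.05) or at 24 h (background 0.00937%, again 5 unadjusted). At 24 h libraries of the same replicate number were paired. The fit with the replicate number as a block called 2 of these there (background 0.534%), GABARAPL1 at 0.32 (adjusted p = 0.00209) and ATG13 at 0.21 (adjusted p = 0.0313). The Wald test of DESeq2 called GABARAPL1 alone there, and none at 6 h.

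p53 TM differed from p53 WT in 19 of the 45 genes at 24 h. Of these, 16 were higher with p53 TM and 3 lower, where 21.2% of all genes were called, 9.29% higher and 11.9% lower. DESeq2 size factors gave 12 and 5. The paired fit called 21 higher and 6 lower (background 37%). The median log2 difference was 0.11 for the members and -0.01 for all genes. Without 1 library the lowest count was 11 (p53 TM replicate 2 left out), followed by 12 (p53 WT replicate 1 left out), both at 24 h. At 6 h 4 members were higher and 3 lower (background 10.9%). Dropping p53 TM replicate 1 left a count of 2, and dropping p53 WT replicate 3 a count of 3. With all 30 libraries as labelled it was 0, and with the pair exchanged it stayed within 1.5 times.

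Compared with p53 O6-meG, which shares the vector but had active AGT, p53 TM was higher in 5 members and lower in 2 at 24 h (background 10%; with DESeq2 size factors 4 and 3). The paired fit called 14 and 5 (background 25.3%). Without 1 library the count fell to 3 (without p53 O6-meG replicate 2 or p53 TM replicate 2) or to 4 (without p53 O6-meG replicate 1 or p53 TM replicate 3). At 6 h 1 member was higher and 1 lower (background 4.1%). With the pair exchanged there were 5 in all, and as labelled 0. That count was 1 without p53 O6-meG replicate 3 or p53 TM replicate 3 at 6 h. Compared with p53 RW, p53 TM was higher in 9 members at 24 h and lower in none (background 10.3%), and the paired fit called 16 and 2 (background 21.7%). Without p53 TM replicate 1 the count was 4. At 6 h GABARAPL1 alone was higher (background 0.15%). Compared with pGFP, p53 TM was higher in 10 members at 24 h and lower in none, where 10.7% of all genes were called, 9% higher and 1.68% lower. The paired fit called 21 higher (background 21.7%), and the count was 6 without p53 TM replicate 1. At 6 h GABARAPL1 was again the one member called (background 0.202%). No member differed by 2-fold between p53 TM and p53 WT or p53 O6-meG at 24 h, where 4.52% and 2.01% of all genes did, and only DRAM1 did so at 6 h, beside 4.59% and 1.86% of all genes.

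**Figure D3:**
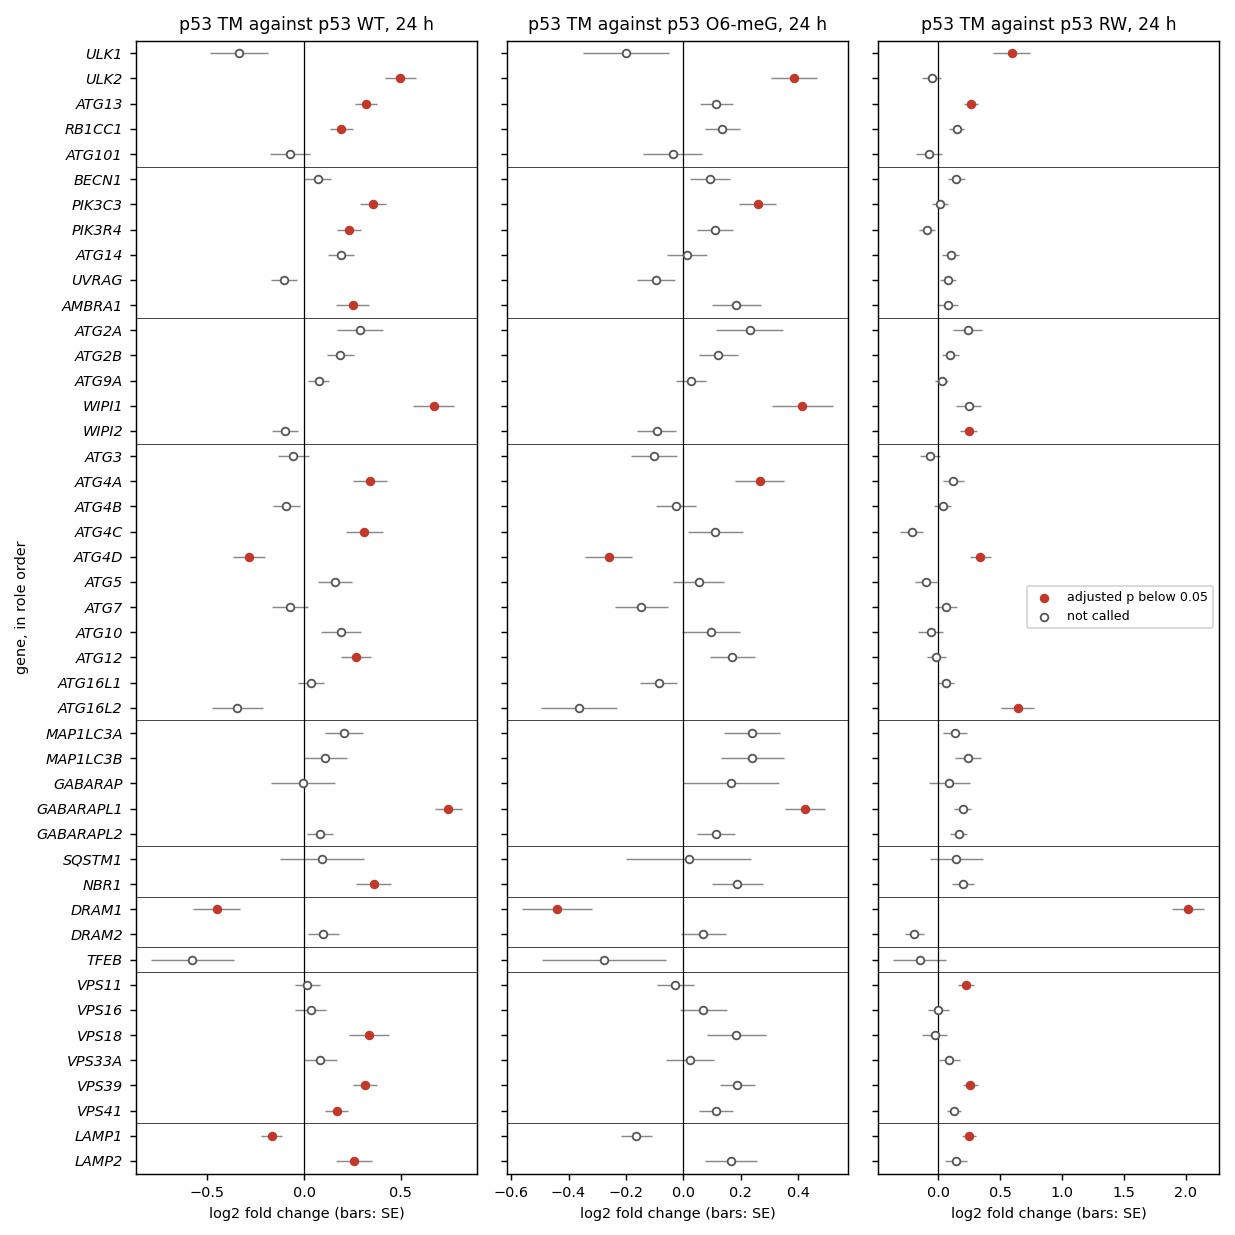
log2 fold change of p53 TM against p53 WT (left), p53 O6-meG (middle) and p53 RW (right) at 24 h for the 45 genes in role order, each panel with its own scale. Points are estimates, bars are SE, and filled points have adjusted p below 0.05. Against p53 WT 16 filled points lie right of 0 and 3 left, against p53 RW all 9 lie right, with DRAM1 at 2.02.

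The change of the p53 WT effect between the times was tested as an interaction. The log2 change against pGFP was more positive at 24 h than at 6 h for 2 members, DRAM1 and LAMP1, and more negative for 3, GABARAPL1, ULK2 and PIK3C3 (background 6.51%). The fit with the replicate number as a block called 8 and 9 (background 18.3%), although the numbers were shown to pair the libraries at 24 h only. Without pGFP replicate 1 or p53 WT replicate 2 at 24 h the count was 3. For p53 TM against p53 WT, and for p53 TM against p53 O6-meG, DRAM1 was the one member whose difference changed with time (background 1.45% and 0.511%). In the first of these the block called 5 and 1 (background 7.86%), the exchanged pair gave 3, and 2 were called without p53 RW replicate 1 at 24 h.

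DRAM1 (ENSG00000136048.13, chr12:101877580-102012130, GENCODE v44 on hg38) gave the strongest response. With pGFP it was at 11.9, 12.4 and 12.6 CPM at 6 h and 10.2, 13.1 and 11.0 at 24 h, and with p53 RW at 11.4, 11.3 and 11.9 and at 11.1, 11.2 and 10.8. With p53 WT it was at 40.6, 42.3 and 40.0 CPM at 6 h and at 68.8, 65.6 and 48.3 at 24 h. All 6 libraries with p53 WT lay above every library with pGFP or p53 RW, with log2 fold changes against pGFP of 1.74 ± 0.13 (adjusted p = 2.45e-10) at 6 h and 2.41 ± 0.13 (adjusted p = 5.28e-13) at 24 h. The 24 h change exceeded the 6 h change by 0.67 ± 0.18 (adjusted p = 0.0203). This call was lost without pGFP replicate 1 (adjusted p = 0.0698), p53 WT replicate 1 (0.0721) or p53 WT replicate 2 (0.0563) at 24 h.

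With p53 TM the rise of DRAM1 was missing at 6 h and smaller at 24 h. At 6 h the 2 libraries in the fit held 12.1 and 13.3 CPM, beside the pGFP values, against 37.0 and 35.8 with p53 O6-meG. At 24 h p53 TM held 54.1, 42.1 and 37.6 CPM and p53 O6-meG 68.6, 60.7 and 52.2. Of the rise from mean pGFP to mean p53 WT, the p53 TM libraries showed -0.542 and 3.54% at 6 h and 86.2, 62 and 52.9% at 24 h. At 6 h DRAM1 was lower than with p53 WT and than with p53 O6-meG, with log2 differences of -1.69 ± 0.15 (adjusted p = 1.75e-08) and -1.52 ± 0.16 (adjusted p = 4.66e-07). Exchanging the conflicting pair gave -1.68 (adjusted p = 1.44e-10) and -1.58 (adjusted p = 8.97e-10). As labelled, the values were -0.87 (adjusted p = 0.164) and -0.35 (adjusted p = 1). At 24 h the differences were -0.45 ± 0.12 (adjusted p = 0.0088) from p53 WT and -0.44 ± 0.12 (adjusted p = 0.0203) from p53 O6-meG, while p53 TM stood above p53 RW by 2.02 ± 0.13 (adjusted p = 2.84e-11) and above pGFP by 1.96 ± 0.13 (adjusted p = 5.03e-11). The ranges of p53 TM and p53 WT overlapped at 24 h, and in each replicate number p53 TM was the lower. The 24 h call against p53 WT was lost without p53 WT replicate 1 (adjusted p = 0.0721) or p53 TM replicate 3 (0.0743). Against p53 O6-meG it was lost without p53 O6-meG replicate 1 (0.112) or 2 (0.0572) and without p53 TM replicate 2 (0.0943) or 3 (0.14). Both calls were also lost with all 30 libraries as labelled (0.353 and 0.453) and with libraries of 24 h only (0.0531 and 0.107). The deficit shrank between the times: the difference from p53 WT was less negative at 24 h by 1.24 ± 0.19 (adjusted p = 0.000327), and that from p53 O6-meG by 1.08 ± 0.20 (adjusted p = 0.00518). The latter was lost without p53 TM replicate 1 at 6 h (0.0642). With all 30 libraries as labelled, these were 0.41 (adjusted p = 0.851) and -0.09 (adjusted p = 0.986).

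**Figure D4:**
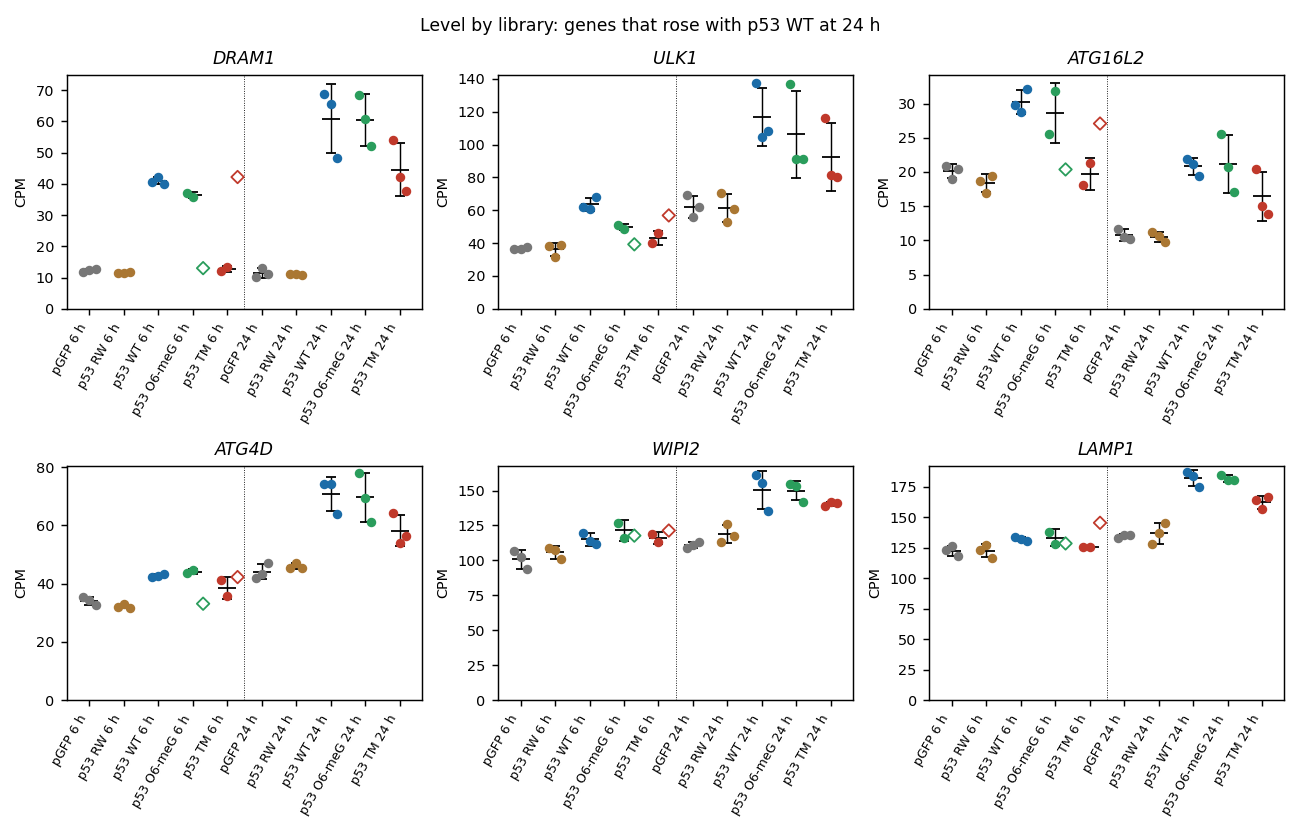
CPM of 6 genes in every library, by vector, at 6 h (left of the dotted line) and 24 h (right). Filled points are libraries in the fit, bars are mean and SD, and open diamonds are the pair of 6 h libraries with conflicting titles, drawn under the group of their genotype field. DRAM1 with p53 TM is at the pGFP level at 6 h and between 37.6 and 54.1 CPM at 24 h. The open diamonds of DRAM1 and ULK1 lie on the opposite side to the filled points of their group.

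DRAM2, the paralogue of DRAM1, went the other way with p53 WT at 24 h. It was at 29.1, 32.3 and 32.5 CPM with pGFP and 24.7, 27.9 and 26.3 with p53 WT, without overlap, a change of -0.25 ± 0.08 (adjusted p = 0.0137). The call was lost without pGFP replicate 2 (0.0549) or 3 (0.0574). With p53 TM it was at 25.7, 30.5 and 28.3 CPM, 0.10 ± 0.08 (adjusted p = 0.423) from p53 WT. The CEPT1 gene overlaps 12.6% of the exon bases of DRAM2 on the opposite strand, and whether counting used strand is not given in the sources used here. The same doubt touches other members with exon bases shared on the opposite strand, among them SQSTM1 (21.0%, MRNIP), ATG14 (20.8%, FBXO34), ATG7 (18.1%, VGLL4), ATG4D (14.7%, KRI1), BECN1 (12.4%, CNTD1) and GABARAPL1 (8.12%, GABARAPL1-AS1).

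The 250 bases before the RefSeq start of DRAM1 (GRCh38.p14, chr12:101877330-101877579, plus strand) are shown because no other member rose as far. They hold no perfect p53 half-site on either strand and no CACGTG. In the sequence lines capitals mark these motifs, and this one has none.
DRAM1: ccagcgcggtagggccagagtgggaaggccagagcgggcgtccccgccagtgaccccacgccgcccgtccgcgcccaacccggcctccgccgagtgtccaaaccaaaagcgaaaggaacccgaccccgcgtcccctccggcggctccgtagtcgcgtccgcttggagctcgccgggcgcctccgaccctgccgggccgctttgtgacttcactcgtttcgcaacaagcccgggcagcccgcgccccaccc

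Among 27305 promoter windows of this length in RefSeq, 5.53% hold a p53 half-site. Windows were matched for 38 of the 45 members, and those of GABARAPL1 and VPS11 hold a half-site. Full sites, a pair of half-sites separated by 0 to 13 bases, were also searched within 5000 bases on each side of the annotated start of each gene tested: 1.3% of 21133 genes hold a perfect one, and 0 of the 45 members. This search allows no mismatch, so no match says only that these letters are not in the window.

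In the ULK complex, the kinase paralogues ULK1 and ULK2 moved in opposite directions. ULK1 (ENSG00000177169.9, chr12:131894622-131923150), the kinase that starts autophagy, was at 36.1, 36.3 and 37.5 CPM with pGFP and 62.0, 61.0 and 68.2 with p53 WT at 6 h, and at 69.1, 55.7 and 61.9 and 137, 105 and 108 at 24 h. The groups did not overlap at either time, and ULK1 rose by 0.80 ± 0.15 (adjusted p = 0.000527) and 0.91 ± 0.15 (adjusted p = 2.91e-05) on the log2 scale. With p53 TM at 24 h, ULK1 was at 116, 81.2 and 80.3 CPM, which was lower than p53 WT and higher than pGFP in each replicate number. It was higher than with p53 RW by 0.59 ± 0.15 (adjusted p = 0.00962), a call lost without p53 TM replicate 1 (0.141) or p53 RW replicate 2 (0.0739). The difference from p53 WT was -0.33 ± 0.15 (adjusted p = 0.12) and in the paired fit -0.34 (adjusted p = 0.000262). It was also called without p53 TM replicate 1 (0.0114). At 6 h it was lower with p53 TM (40.2 and 46.3 CPM) than with p53 WT, a log2 difference of -0.56 ± 0.17 (adjusted p = 0.0332), which was -0.61 (adjusted p = 0.00485) with the pair exchanged or -0.42 (adjusted p = 0.188) as labelled. Leaving out any of the 3 p53 WT or 2 p53 TM libraries ended that call (adjusted p up to 0.321).

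ULK2 (ENSG00000083290.19, chr17:19770829-19867936) was at 26.4, 23.7 and 23.4 CPM with pGFP and 16.6, 17.1 and 16.4 with p53 WT at 24 h, a log2 change of -0.55 ± 0.08 (adjusted p = 4.38e-06). At 6 h the groups overlapped (21.7, 19.1 and 21.5 against 19.2, 21.7 and 20.4), and the difference between the times was -0.53 ± 0.11 (adjusted p = 0.00525). With p53 TM at 24 h ULK2 was at 25.1, 22.7 and 23.0 CPM, close to pGFP and p53 RW (27.015, 23.7 and 22.8). It was higher than with p53 WT by 0.50 ± 0.08 (adjusted p = 8.91e-05) and higher than with p53 O6-meG (18.2, 18.4 and 17.5 CPM) by 0.39 ± 0.08 (adjusted p = 0.00276). These calls for ULK2 held without any 1 library. ATG13, the regulatory subunit, did not follow the p53 WT response. It was at 129, 122 and 123 CPM with pGFP, 120.3, 121 and 112 with p53 WT and 128, 119 and 122 with p53 RW at 24 h, at 141, 129.7 and 137 with p53 O6-meG and at 151, 147 and 144 with p53 TM. The p53 O6-meG libraries lay above all of pGFP, p53 WT and p53 RW, and the 3 p53 TM libraries above those. p53 TM differed from p53 O6-meG by 0.11 ± 0.06 (adjusted p = 0.227), which was not called. p53 TM was higher by 0.32 ± 0.06 (adjusted p = 0.000237) over p53 WT, 0.26 ± 0.06 (adjusted p = 0.0025) over p53 RW and 0.24 ± 0.06 (adjusted p = 0.00526) over pGFP. Without the filter on low counts the calls over p53 RW (0.137) and pGFP were lost, the latter also with libraries of 24 h only. RB1CC1 was higher with p53 TM than with p53 WT by 0.19 ± 0.06 (adjusted p = 0.0253), a call lost without p53 WT replicate 3 (0.0851) or p53 TM replicate 2 (0.16). ATG101 was not called in any of these comparisons in the fit without the block.

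Of the 6 genes of the PI3-kinase complex, PIK3C3 and PIK3R4 fell and UVRAG rose with p53 WT at 24 h. PIK3C3, the catalytic lipid kinase VPS34, was at 66.2, 59.0 and 58.1 CPM with pGFP and 48.5, 44.047 and 44.6 with p53 WT, a change of -0.42 ± 0.07 (adjusted p = 1.39e-05). PIK3R4, its regulatory subunit VPS15, changed by -0.27 ± 0.06 (adjusted p = 0.00126). UVRAG, which directs the complex to endosomes, changed by 0.19 ± 0.07 (adjusted p = 0.0276), and that call was lost in 9 of the 28 fits without 1 library (adjusted p up to 0.124). With p53 TM, PIK3C3 was at 61.1, 57.5 and 57.0 CPM, close to pGFP, above p53 WT by 0.36 ± 0.07 (adjusted p = 0.000354) and above p53 O6-meG by 0.26 ± 0.07 (adjusted p = 0.0119). The last was lost without p53 O6-meG replicate 2 (0.0516). PIK3R4 was above p53 WT by 0.23 ± 0.06 (adjusted p = 0.00976), a call lost without p53 TM replicate 2 (0.0605), and AMBRA1, an activator of the complex, by 0.25 ± 0.08 (adjusted p = 0.0353), a call lost in 5 of the 28 fits without 1 library (adjusted p up to 0.172). The change of PIK3C3 with p53 WT was more negative at 24 h than at 6 h, by -0.33 ± 0.09 (adjusted p = 0.032), which 9 of the 28 fits without 1 library lost (adjusted p up to 0.118). At 6 h, AMBRA1 (0.30 ± 0.09 (adjusted p = 0.0408)), ATG14 (0.27 ± 0.08 (adjusted p = 0.0216)) and PIK3R4 (0.23 ± 0.07 (adjusted p = 0.0308)) were higher with p53 TM than with p53 WT. All 3 calls were lost without p53 TM replicate 1 or without p53 WT replicate 3, that of AMBRA1 also without p53 WT replicate 1 or pGFP replicate 2 and that of ATG14 also without p53 WT replicate 2 or p53 TM replicate 3 (adjusted p up to 0.595). They were lost too with all 30 libraries as labelled (adjusted p = 0.208, 0.397 and 0.134). BECN1, the core scaffold, was not called between any vectors at 24 h in the fit without the block, with 0.10 ± 0.07 (adjusted p = 0.305) for p53 WT against pGFP.

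Among the lipid supply genes the WIPI paralogues diverged as the ULK paralogues did. Both bind the lipid that PIK3C3 makes. WIPI2 was at 109, 111 and 113 CPM with pGFP and 161, 155 and 135 with p53 WT at 24 h, a rise of 0.44 ± 0.07 (adjusted p = 9.88e-06). WIPI1 was at 13.2, 12.0 and 10.6 and 9.44, 9.17 and 8.19 CPM, a log2 change of -0.42 ± 0.11 (adjusted p = 0.00313). With p53 TM, WIPI2 was at 139, 142 and 141 CPM, above all pGFP and p53 RW libraries. It exceeded p53 RW by 0.24 ± 0.07 (adjusted p = 0.0182) and differed from p53 WT by -0.10 ± 0.07 (adjusted p = 0.335). The call against p53 RW was lost without p53 RW replicate 1 (0.0834) or 3 (0.0664), or without p53 TM replicate 1 (0.0501) or 2 (0.0545). WIPI1 with p53 TM was at 13.5, 14.6 and 14.5 CPM, above every other 24 h library of the study. It exceeded p53 WT by 0.67 ± 0.11 (adjusted p = 7.89e-05) and p53 O6-meG by 0.42 ± 0.11 (adjusted p = 0.0124). Against pGFP the difference was 0.25 ± 0.11 (adjusted p = 0.146), and 0.26 (adjusted p = 0.0165) in the paired fit. The call against p53 O6-meG was lost without p53 O6-meG replicate 1 (0.0509) or p53 TM replicate 2 (0.0527) or 3 (0.0555). WIPI1 shares 24.4% of its exon bases with ARSG on the opposite strand. ATG2A, ATG2B and ATG9A were not called between any of these groups at 24 h in the fit without the block.

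The 11 conjugation genes split with p53 WT at 24 h: ATG16L2, ATG4D and ATG4B were higher, and ATG4C, ATG4A and ATG12 lower. ATG16L2 was at 20.9, 19.0 and 20.5 CPM with pGFP and 29.8, 28.8 and 32.1 with p53 WT at 6 h, and at 11.7, 10.5 and 10.1 and 21.9, 21.2 and 19.4 at 24 h. It rose by 0.59 ± 0.13 (adjusted p = 0.00268) and 0.95 ± 0.13 (adjusted p = 3.19e-06), although its level fell with time in both groups. Its paralogue ATG16L1, which serves canonical autophagy, changed by 0.12 ± 0.07 (adjusted p = 0.18). With p53 TM, ATG16L2 was at 20.5, 15.0 and 13.8 CPM at 24 h, above all pGFP and p53 RW libraries, by 0.64 ± 0.13 (adjusted p = 0.00182) over p53 RW. The difference from p53 WT was -0.35 ± 0.13 (adjusted p = 0.065). At 6 h it was at 18.1 and 21.4 CPM, lower than with p53 WT, a log2 difference of -0.62 ± 0.15 (adjusted p = 0.00564), or -0.60 (adjusted p = 0.00102) with the pair exchanged and -0.45 (adjusted p = 0.137) as labelled. Without p53 TM replicate 1 that call was lost (0.152).

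The ATG4 proteases, which prime and recycle ATG8 proteins, responded differently from each other. ATG4D was at 41.9, 43.4 and 47.1 CPM with pGFP and 74.2, 74.2 and 63.9 with p53 WT at 24 h, a rise of 0.68 ± 0.08 (adjusted p = 3e-07). At 6 h it rose by 0.33 ± 0.08 (adjusted p = 0.00788), which was lost without pGFP replicate 3 (0.0529). ATG4B, the most active of the family, changed by 0.18 ± 0.07 (adjusted p = 0.0486), and 20 of the 28 fits without 1 library lost that call (adjusted p up to 0.209). ATG4C fell, with a log2 change of -0.45 ± 0.10 (adjusted p = 0.000636), from 19.0, 20.5 and 18.3 to 12.7, 14.2 and 15.5 CPM. ATG4A fell, with a log2 change of -0.27 ± 0.09 (adjusted p = 0.0147), lost without pGFP replicate 1 (0.0635) or p53 WT replicate 3 (0.0955). With p53 TM at 24 h, ATG4D was at 64.3, 54.1 and 56.2 CPM, above every pGFP and p53 RW library (0.34 ± 0.08 (adjusted p = 0.00675) over p53 RW, lost without p53 TM replicate 1, 0.0803). It was below p53 WT and p53 O6-meG, with log2 differences of -0.28 ± 0.08 (adjusted p = 0.0145) and -0.26 ± 0.08 (adjusted p = 0.0444). Leaving out p53 WT replicate 1 (0.0816) or 2 (0.0653), or p53 TM replicate 2 (0.0902) or 3 (0.0629), ended the first call, and 17 of the 28 fits lost the second (adjusted p up to 0.232). ATG4A was higher with p53 TM than with p53 WT by 0.34 ± 0.09 (adjusted p = 0.00568), which held without any 1 library. Its difference from p53 O6-meG, 0.27 ± 0.09 (adjusted p = 0.0491), did not hold in 17 of the 28 fits (adjusted p up to 0.159). ATG4C exceeded p53 WT by 0.31 ± 0.10 (adjusted p = 0.0225), lost without p53 WT replicate 1 (0.0974) or 2 (0.0523) or p53 TM replicate 2 (0.111). ATG12, the ubiquitin-like protein that is joined to ATG5, changed by -0.23 ± 0.08 (adjusted p = 0.026) on the log2 scale with p53 WT and was higher with p53 TM than with p53 WT by 0.27 ± 0.08 (adjusted p = 0.0158). The first was lost without pGFP replicate 1 (0.131) or p53 WT replicate 2 (0.122), the second without p53 TM replicate 1 (0.0678) or p53 WT replicate 2 (0.0852). ATG3, ATG5, ATG7, ATG10 and ATG16L1 were not called in either comparison in the fit without the block. ATG5 was nonetheless lower with p53 WT (80.8, 87.5 and 93.8 CPM) than with pGFP (93.9, 109.7 and 102.9) in each replicate number at 24 h.

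Of the ATG8 genes, GABARAPL1 (ENSG00000139112.10, chr12:10212458-10223128) alone was called with p53 WT, and in p53 TM cells it was at its highest. At 24 h it was at 88.9, 82.6 and 80.8 CPM with pGFP, 86.4, 86.2 and 78.5 with p53 RW and 55.5, 57.9 and 58.4 with p53 WT, a log2 change of -0.55 ± 0.07 (adjusted p = 5.61e-07). p53 O6-meG cells held 70.6, 72.4 and 71.6 CPM, between these groups and without overlap with either. p53 TM cells held 95.1, 97.1 and 95.7 CPM, above every other library of the study. This was above p53 WT by 0.74 ± 0.07 (adjusted p = 2.67e-07) and above p53 O6-meG by 0.42 ± 0.07 (adjusted p = 0.000428), and both calls held in every fit without 1 library. Against pGFP and p53 RW the differences were 0.19 ± 0.07 (adjusted p = 0.0851) and 0.20 ± 0.07 (adjusted p = 0.0739), and in the paired fit 0.19 (adjusted p = 0.00475) and 0.20 (adjusted p = 0.00345). At 6 h, before any fall with p53 WT was detectable (0.02 ± 0.07 (adjusted p = 0.947)), p53 TM cells already held 52.3 and 49.7 CPM against 40.7, 36.1 and 37.3 with pGFP, 41.9, 35.2 and 38.5 with p53 WT and 39.0, 34.2 and 39.3 with p53 RW. p53 O6-meG cells held 46.8 and 43.6 CPM at 6 h, also above every library of these 3 groups, and the difference of p53 TM from p53 O6-meG was not called (0.17 ± 0.09 (adjusted p = 0.349)). Against pGFP, p53 WT and p53 RW, the differences were 0.42 ± 0.08 (adjusted p = 0.0113), 0.40 ± 0.08 (adjusted p = 0.000744) and 0.44 ± 0.08 (adjusted p = 0.00691). With the pair exchanged they were 0.37 (adjusted p = 0.0133), 0.35 (adjusted p = 0.000709) and 0.39 (adjusted p = 0.00996), and as labelled 0.33 (adjusted p = 0.116), 0.32 (adjusted p = 0.065) and 0.35 (adjusted p = 0.0988). The call against p53 RW was lost without p53 TM replicate 1 (0.299) or 3 (0.0511) or p53 RW replicate 2 (0.081), and that against pGFP without either p53 TM library or without pGFP replicate 2 or 3. The change with p53 WT was more negative at 24 h than at 6 h by -0.57 ± 0.10 (adjusted p = 0.00102).

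**Figure D5:**
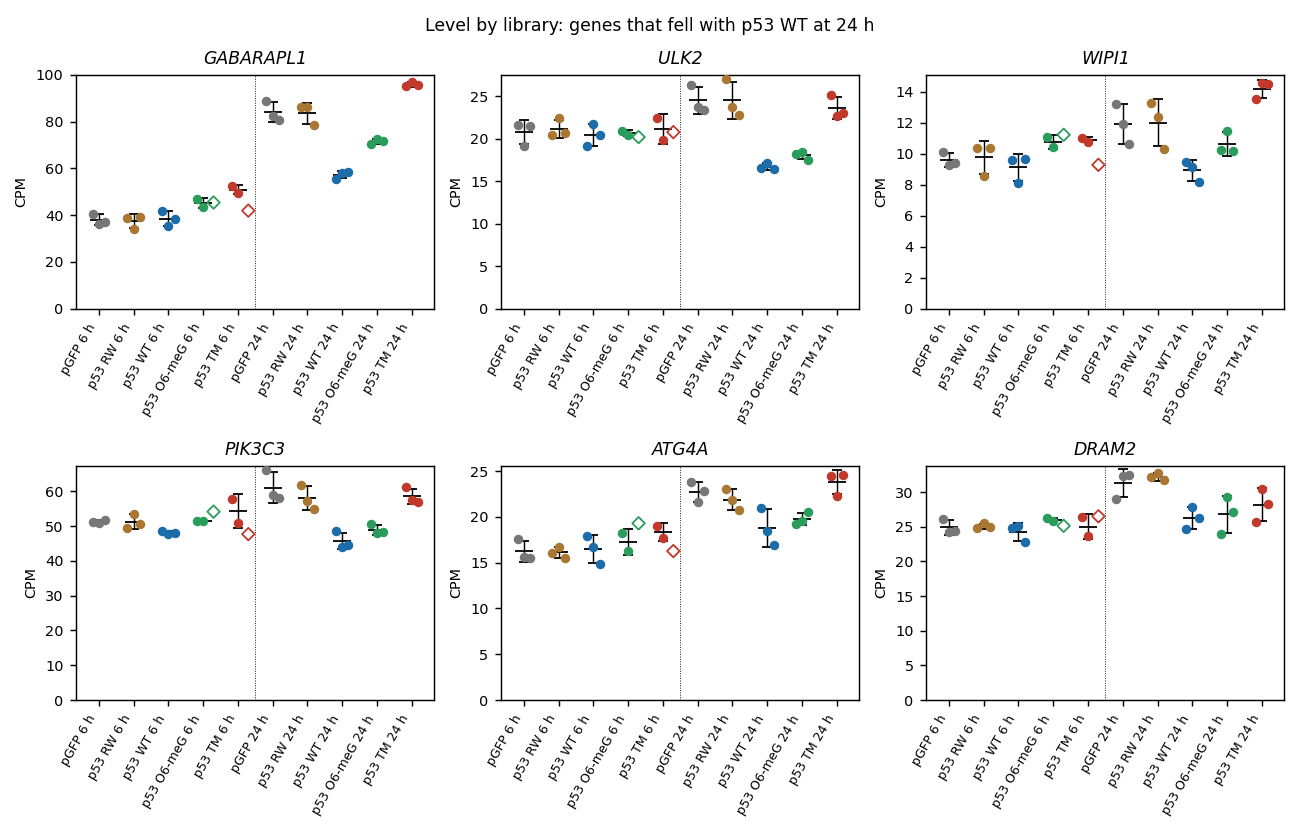
CPM of 6 genes that fell with p53 WT at 24 h, in every library, by vector and time. Filled points are libraries in the fit, bars are mean and SD, and open diamonds are the pair of 6 h libraries with conflicting titles. At 24 h GABARAPL1 is at 55.5 to 58.4 CPM with p53 WT, 70.6 to 72.4 with p53 O6-meG and 95.1 to 97.1 with p53 TM, and WIPI1 is highest with p53 TM.

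MAP1LC3B, the LC3 form used as the standard autophagy marker, was at 121, 127 and 111 CPM with pGFP, 137, 124 and 142 with p53 WT and 157, 138 and 139.9 with p53 TM at 24 h. p53 WT overlapped both other groups, while every p53 TM library lay above every pGFP library. None of the differences was called, with 0.16 ± 0.11 (adjusted p = 0.268) for p53 WT against pGFP, 0.11 ± 0.11 (adjusted p = 0.537) for p53 TM against p53 WT and 0.27 ± 0.11 (adjusted p = 0.123) for p53 TM against pGFP. At 6 h it was higher with p53 TM (93.1 and 109 CPM) than with p53 O6-meG (83.8 and 59.1) by 0.50 ± 0.13 (adjusted p = 0.0319). The call rested on the lowest library, since it was lost without p53 O6-meG replicate 3 (0.573), and also without p53 TM replicate 3 (0.351). As labelled the value was 0.28 (adjusted p = 1), and exchanged 0.36 (adjusted p = 0.042). SQSTM1, which is degraded with its cargo as protein, had a wide spread between replicates as RNA: 382, 543 and 577 CPM with pGFP, 393, 639 and 686 with p53 WT and 417, 722 and 689.8 with p53 TM at 24 h. Replicate 1 was the lowest of every group at 24 h. The change with p53 WT was 0.19 ± 0.22 (adjusted p = 0.54), and in the paired fit 0.17 (adjusted p = 0.0203). p53 TM differed from p53 WT by 0.09 ± 0.22 (adjusted p = 0.828). NBR1, the other receptor, was at 106, 134 and 115 CPM with p53 WT and 139, 168 and 149 with p53 TM at 24 h, higher in each replicate number, by 0.36 ± 0.09 (adjusted p = 0.00489), and this held in every fit without 1 library. The difference from p53 O6-meG was 0.19 ± 0.09 (adjusted p = 0.198).

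Among the tethers, p53 WT raised VPS11 alone of 6 subunits at 24 h. VPS11, VPS16, VPS18 and VPS33A are shared by HOPS and CORVET, and VPS39 and VPS41 belong to HOPS. VPS11 changed by 0.20 ± 0.07 (adjusted p = 0.0178) with p53 WT, lost in 7 of the 28 fits without 1 library (adjusted p up to 0.37). VPS11 also lost this call without the filter on low counts (0.414) and with libraries of 24 h only (0.104). With p53 TM it stayed as high, 0.02 ± 0.07 (adjusted p = 0.905) from p53 WT and 0.22 ± 0.07 (adjusted p = 0.0278) above p53 RW, of which the last was also lost in 7 fits (up to 0.128). The HOPS subunit VPS39 was at 99.4, 96.2 and 97.5 CPM with pGFP, 93.2, 98.9 and 93.1 with p53 WT, 108, 104 and 99.2 with p53 O6-meG and 124, 119.7 and 111 with p53 TM. The p53 TM libraries lay above all of these. The difference from p53 O6-meG, 0.19 ± 0.06 (adjusted p = 0.0511), was not called, and p53 TM was higher by 0.31 ± 0.06 (adjusted p = 0.000634) over p53 WT and 0.26 ± 0.06 (adjusted p = 0.00556) over p53 RW, the latter lost without p53 TM replicate 1 (0.0505). VPS18 (0.33 ± 0.10 (adjusted p = 0.0223)) and VPS41 (0.17 ± 0.06 (adjusted p = 0.0423)) were also higher with p53 TM than with p53 WT. The call of VPS18 was lost without p53 WT replicate 1 (0.109) or 3 (0.0752) or p53 TM replicate 2 (0.158), and that of VPS41 in 6 of the 28 fits (up to 0.128). VPS16 and VPS33A were not called in these comparisons in the fit without the block.

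LAMP1 rose with p53 WT and LAMP2 did not. LAMP1 (ENSG00000185896.10, chr13:113297239-113323672) was at 133, 136 and 136 CPM with pGFP, 128, 137 and 145 with p53 RW and 187, 184 and 175 with p53 WT at 24 h, a rise of 0.44 ± 0.06 (adjusted p = 5.96e-07). The rise was larger at 24 h than at 6 h by 0.33 ± 0.08 (adjusted p = 0.0107), and at 6 h it was 0.11 ± 0.06 (adjusted p = 0.306). p53 O6-meG matched p53 WT at 185, 180.2 and 180.2 CPM. p53 TM was between, at 164, 156 and 166 CPM, overlapping no library of pGFP, p53 RW or p53 WT. It was above p53 RW by 0.25 ± 0.06 (adjusted p = 0.0035) and below p53 WT, a log2 difference of -0.17 ± 0.06 (adjusted p = 0.0319). The last call was lost in 6 of the 28 fits without 1 library (adjusted p up to 0.175). Both calls were also lost without the filter on low counts (0.222 and 0.422) and with libraries of 24 h only (0.0542 and 0.0627). LAMP2, which is needed for fusion with the lysosome, was at 120.1, 123 and 108 CPM with pGFP, 114, 114 and 107 with p53 WT and 147, 136 and 118 with p53 TM. It changed by -0.07 ± 0.09 (adjusted p = 0.619) with p53 WT, and was higher with p53 TM than with p53 WT by 0.26 ± 0.09 (adjusted p = 0.0459), which 13 of the 28 fits lost (up to 0.193). TFEB was at 6.1, 7.27 and 4.56 CPM with p53 WT, 4.22, 5.07 and 3.93 with pGFP and 3.81, 4.98 and 3.27 with p53 TM at 24 h. It was above pGFP and above p53 TM in each replicate number with p53 WT, but neither difference was called: 0.44 ± 0.21 (adjusted p = 0.116) and, for p53 TM against p53 WT, -0.58 ± 0.21 (adjusted p = 0.0553). In the paired fit both were, at 0.43 (adjusted p = 0.00328) and -0.57 (adjusted p = 0.000338). Leaving out p53 WT replicate 3 at 24 h also brought both below the threshold (0.0411 and 0.0205), and p53 TM replicate 2 (0.0319) or p53 O6-meG replicate 2 (0.0483) or 3 (0.0335) the second. The second was called too by the Wald test of DESeq2 (adjusted p = 0.0315), with its size factors in edgeR (0.0433), with at least 10 counts in every library (0.0415) and with the pair exchanged (0.0485).

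The promoters of LAMP1 and VPS11 are shown because both genes were called higher with p53 WT at 24 h and both hold CACGTG. This is the core of the element that TFEB and its relatives bind. Of these 2 calls only that of LAMP1 held in every fit without 1 library. Capitals mark CACGTG and, in VPS11, a p53 half-site whose first base lies 246 bases before the start. Both are from RefSeq (GRCh38.p14, plus strand), LAMP1 at chr13:113296989-113297238 with 5 copies of CACGTG and VPS11 at chr11:119067568-119067817 with 2.
LAMP1: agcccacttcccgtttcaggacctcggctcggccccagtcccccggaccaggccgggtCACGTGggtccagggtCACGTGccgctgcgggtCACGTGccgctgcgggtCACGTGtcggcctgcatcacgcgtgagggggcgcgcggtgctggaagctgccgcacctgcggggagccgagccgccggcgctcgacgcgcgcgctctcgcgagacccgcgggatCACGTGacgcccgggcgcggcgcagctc
VPS11: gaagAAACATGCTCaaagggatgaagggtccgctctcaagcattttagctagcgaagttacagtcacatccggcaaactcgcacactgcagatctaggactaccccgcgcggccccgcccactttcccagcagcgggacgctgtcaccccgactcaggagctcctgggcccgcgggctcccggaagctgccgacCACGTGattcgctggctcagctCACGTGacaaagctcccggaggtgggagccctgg

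CACGTG, which reads the same on both strands, is in 6.49% of the 27305 windows and in 5 of the 38 members matched (ATG3, ATG14, LAMP1, VPS11 and VPS16). The longer TCACGTGA, which contains it, is in 0.89% of all windows and in those of LAMP1 and VPS11, once each. Of the 5 genes, ATG3, ATG14 and VPS16 changed by 0.01 ± 0.08, -0.07 ± 0.07 and 0.02 ± 0.08 with p53 WT at 24 h and were not called. A match of letters is a description and not a binding site.

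Genes of the same pathway outside the 45 are given for comparison, from lists made by role. With p53 WT against pGFP at 24 h, 7 of 27 other autophagy genes were higher and 2 lower, 3 of 10 other tethering genes were higher and 1 lower, and 9 of 33 lysosome genes were higher and 3 lower, beside 20.5% higher and 14.5% lower of all genes. Their median log2 changes were 0.00, 0.11 and 0.11. The largest of these changes exceeded every one of the 45 members except DRAM1: RETREG1, a receptor for the endoplasmic reticulum, rose by 2.04 ± 0.40 (adjusted p = 0.000233), TP53INP1, a p53 target that binds ATG8 proteins, by 1.97 ± 0.19 (adjusted p = 8.81e-09), RILP, the effector of the late endosomal GTPase RAB7A that recruits HOPS, by 1.79 ± 0.15 (adjusted p = 5.03e-10), and EI24, an endoplasmic reticulum protein needed for autophagosome formation, by 1.196 ± 0.10 (adjusted p = 6.26e-10). Of the tethering genes, TGFBRAP1, the CORVET subunit that stands in the place of VPS39, rose by 1.26 ± 0.10 (adjusted p = 1.65e-10) and VPS33B by 0.75 ± 0.10 (adjusted p = 7.89e-07). Of the lysosome genes, the membrane protein LAPTM4B rose by 0.66 ± 0.10 (adjusted p = 8.47e-06). STX17, the SNARE of the autophagosome, fell by 0.53 on the log2 scale (adjusted p = 3.57e-05), and FUNDC1, a mitochondrial receptor, by 0.36 (3.68e-05). With p53 TM against p53 WT at 24 h, 5 of the 27 other autophagy genes were higher and 2 lower, 3 and 2 of the 10 tethering genes, and 2 and 2 of the 33 lysosome genes, beside 9.29% and 11.9% of all genes. Against pGFP, p53 TM had 5, 3 and 7 higher in these lists and 0 lower in each, beside 9% and 1.68% of all genes. Of 9 members that earlier work linked to binding by p53, 3 were higher with p53 WT at 24 h (DRAM1, ULK1 and UVRAG) and 3 lower (ULK2, ATG4A and ATG4C), while ATG2B, ATG7 and ATG10 were not called. Over the 45 members 40% were called and over all genes 35%, and the call of UVRAG was lost in 9 of the 28 fits without 1 library.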

How the data were processed

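RNA-seq libraries (TruSeq Stranded Total RNA, Ribo-Zero Gold, NextSeq 500, single reads) were mapped by the authors with STAR v2.5.3a (hg38), and featureCounts (Subread v1.5.2) assigned reads to genes of GENCODE v27. The deposited raw read counts per gene were used (39359 genes, 30 libraries, every column mapped to a sample by its name). The table of counts that the authors divided by a factor per library was not used. Whether counting used strand is not given in the sources used here.

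The counts of 28 libraries were fitted together in edgeR 4.0.16 (R 4.3.3), with 1 coefficient for each vector and time, TMM scaling, filterByExpr by group (21335 genes kept) and the quasi-likelihood test. p-values were Benjamini-Hochberg adjusted over all genes tested, and a gene was called at an adjusted p below 0.05. Fold changes are log2 estimates ± SE. Levels are CPM on TMM library sizes. Both libraries whose titles conflict were left out. The alternatives were all 30 libraries as labelled or with that pair exchanged, DESeq2 1.42.0, its size factors in edgeR, no filter or at least 10 counts in every library, libraries of 1 time only, the replicate number as a block, a 2-fold limit, and each library left out in turn. The scripts were tested on simulated counts. Coordinates, lengths and overlaps were taken from GENCODE v44 on hg38 (38904 gene identifiers matched, 455 did not) and promoters from RefSeq.

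The members and lists were chosen with earlier results of these data known. Fold changes are given for members called with p53 WT against pGFP, or with p53 TM against p53 WT, p53 O6-meG or p53 RW, up to the 12 with the smallest p in each direction, and always for DRAM1, DRAM2, ULK1, ULK2, SQSTM1, MAP1LC3B, TFEB, LAMP1 and LAMP2. From the other lists the 5 with the smallest p in each direction could be named. Values of uncalled members, of RB1CC1, VPS41 and AMBRA1 in p53 TM against p53 WT at 24 h, of p53 TM or p53 O6-meG against pGFP and of the change with time in pGFP cells, a comparison added after the data had been seen, were named beyond this rule. Some results that the rule would have named are not reported here.

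No 2 libraries of a group agreed within sampling noise (chi-square per degree of freedom 6.085 to 47.38). The study's methods call the replicates biological. Whether replicate numbers pair the libraries was tested by correlating deviations from group means. At 24 h all 30 pairs of the same number were above 0.1 (0.407 to 0.863, median 0.664), and the numbers were taken to pair the libraries. The median was -0.469 for different numbers. Deviations from a group mean cancel out within the group, so this negative value follows from the positive one. At 6 h 19 of 23 pairs were above 0.1 (-0.176 to 0.605), and the numbers were not taken to pair them. The main fit left the pairing out at both times. Its calls at 24 h, and their losses, are thus those of an unpaired fit. The replicate block ended 0 of the 103 calls.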

Additional observations from a re-analysis of the deposited data

Results flagged for a closer look

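The effect of a vector differed between 24 h and 6 h, by the interaction term of edgeR's quasi-likelihood test (adjusted p below 0.05), for 5 members with p53 WT against pGFP. The log2 effect at 24 h minus that at 6 h was 0.674 for DRAM1, 0.33 for LAMP1, -0.573 for GABARAPL1, -0.528 for ULK2 and -0.328 for PIK3C3. For DRAM1 it was 1.24 with p53 TM against p53 WT and 1.08 with p53 TM against p53 O6-meG.

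The library labelled p53 TM 6 h replicate 2, whose title conflicts and which was left out of the fit, held DRAM1 at 42.2 CPM, above all 3 pGFP libraries of that time.

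Groups of 3 libraries are too small for a test of single outlying libraries, and none was made.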

How the results depend on the processing

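Over all comparisons of vectors and their changes with time there were 103 calls of members. Of these, 53 held in all 28 fits without 1 library, and 40 under every change of data, scaling, test and filter too. With all 30 libraries as labelled 23 of the 103 were lost, with DESeq2 size factors 15, with its Wald test 12, without a filter 29, with at least 10 counts in every library 5, with libraries of 1 time only 34 of 96, and with the pair exchanged or the replicate block 0. The grouping as labelled goes against the column names and the DRAM1 and CDKN1A levels of the conflicting pair. For single genes, mostly the losses without 1 library are given above, so most other losses appear only in these totals. In pGFP cells 32 further calls were made between the times. SQSTM1 in p53 TM against p53 WT at 24 h, never called, turned to -0.0982, -0.0485 and -0.00888 without p53 WT replicate 1, p53 TM replicate 2 or p53 TM replicate 3 (up to 0.3017 without p53 TM replicate 1), and the change of DRAM1 with time in p53 TM against p53 O6-meG turned to -0.0938 (edgeR adjusted p = 0.986) with all 30 libraries as labelled. The causes of the shifts given here were not tested. No scaling moved the median of all genes by 0.1 log2. Counting limits low genes most, TFEB and GABARAP first.

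Counts of members called follow, each with the count in the report in brackets. With all 30 libraries as labelled, the 6 h counts were 0 for p53 TM against p53 O6-meG (2), p53 WT (7), p53 RW (1) and pGFP (1), and 0 for p53 O6-meG against pGFP (4). At 24 h p53 TM against p53 O6-meG gave 4 (7), and the change with time gave 0 (1) for p53 TM against p53 WT and 0 (1) against p53 O6-meG. With the pair exchanged, p53 TM gave 5 against p53 O6-meG and 2 against pGFP at 6 h, and 3 for the change with time against p53 WT.

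The replicate block raised most counts. At 6 h pairing was not shown. There p53 TM gave 7 against p53 O6-meG (background 12.2%), 17 against p53 WT (background 21.1%), 2 against p53 RW (background 0.848%) and 3 against pGFP (background 1.54%). p53 WT against pGFP gave 9 (4, background 18.8%) and p53 O6-meG against pGFP 8 (background 17.2%). p53 O6-meG against p53 WT gave 3 (0, background 6.42%), namely SQSTM1, ULK1 and MAP1LC3B. At 24 h p53 TM gave 19 against p53 O6-meG (7), 18 against p53 RW (9) and 21 against pGFP (10), with the backgrounds given above. p53 O6-meG against p53 WT gave 2 (0, background 0.534%). The change with time gave 17 (5) for p53 WT and 6 (1) for p53 TM against p53 WT. The block ended none of the 103 calls.

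The Wald test of DESeq2 gave 4 and 11 for p53 TM against p53 O6-meG and p53 WT and 2 against pGFP at 6 h, and 1 for p53 O6-meG against p53 WT at 24 h. Its size factors in edgeR gave 2 for p53 O6-meG against pGFP at 6 h. Without a filter, p53 TM gave 4 against p53 WT at 6 h, and 3 against p53 RW and 5 against pGFP at 24 h. With libraries of 1 time only, p53 TM gave 5 against p53 O6-meG and 14 against p53 WT at 6 h, and 2, 9 (19), 3 and 5 against p53 O6-meG, p53 WT, p53 RW and pGFP at 24 h, and p53 WT against pGFP gave 7 at 6 h. Changes with time could not be fitted that way. The share of all genes called is not given for the settings of this paragraph, nor for DESeq2 size factors above. For these counts a shift of the members cannot be told apart from one of all genes.

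With a 2-fold limit DRAM1 was the 1 member left for p53 TM against p53 O6-meG and p53 WT at 6 h, p53 TM against p53 RW and pGFP at 24 h, p53 WT (18 at 24 h) and p53 O6-meG (14 at 24 h) against pGFP at both times, and the changes with time of p53 TM. The limit left 0 for p53 TM against p53 RW and pGFP at 6 h, against p53 O6-meG and p53 WT at 24 h, and for the change with time of p53 WT. In pGFP cells it left 4 (32) between the times.

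Without 1 library the 6 h counts were 1 to 3 for p53 TM against p53 O6-meG, 2 to 8 against p53 WT, 0 to 1 against p53 RW and 0 to 1 against pGFP, 3 to 4 for p53 WT, 0 for p53 RW and 1 to 4 for p53 O6-meG against pGFP, and 0 to 1 for p53 O6-meG against p53 WT (MAP1LC3B, without p53 O6-meG replicate 1). At 24 h they were 3 to 9, 11 to 22, 4 to 9 and 6 to 10 for p53 TM against p53 O6-meG, p53 WT, p53 RW and pGFP, 14 to 19, 0 and 11 to 15 for p53 WT, p53 RW and p53 O6-meG against pGFP, and 0 for p53 O6-meG against p53 WT. Changes with time gave 3 to 6 for p53 WT, 1 to 2 for p53 TM against p53 WT and 0 to 1 against p53 O6-meG, and 25 to 35 in pGFP cells.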
